A study of Homo sapiens with 8 samples.

Results

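The aryl hydrocarbon receptor (AHR), its partner, its repressors and its classical targets were followed through 8 RNA sequencing libraries from the lines AsPC-1 and PANC-1. These are established lines derived from human pancreatic cancer, and the labels give both as wild type. The genes were chosen by name, 9 in all out of 62649 in the deposited table: the receptor AHR, its partner ARNT, the repressor AHRR, the cytochromes CYP1A1, CYP1A2 and CYP1B1, the ADP-ribosyltransferase TIPARP, the aldehyde dehydrogenase ALDH3A1 and the retinol acyltransferase LRAT. Cells of each line were cultured for 3 days in methylcellulose medium, in which they form spheroids, and were then exposed for 24 h to vehicle, to roseoflavin at 10 µM, to trametinib at 1 nM, or to both compounds at these doses. Roseoflavin is a bacterial analogue of riboflavin, and trametinib inhibits the MEK kinases. There was 1 library for each treatment in each line and no replicate of any group. The error of each pooled value therefore comes from treating the other compound, and where stated the other line, as the replication. Nothing in the labels says whether the libraries of a line came from separate cultures, so p-values measure only the spread between these libraries.

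AHR is a transcription factor of the bHLH-PAS family that small planar molecules bind and activate, among them dioxins, polycyclic aromatic hydrocarbons and products of tryptophan. Without ligand it sits in the cytosol with HSP90. With ligand it moves to the nucleus, pairs with ARNT and binds the xenobiotic response element, whose core is GCGTG. CYP1A1, CYP1A2 and CYP1B1, which oxidise many of the ligands, are its best known targets, and its targets AHRR and TIPARP in turn restrain it. The question put to these genes was whether the flavin analogue acted like a ligand, that is, whether the target genes rose after roseoflavin. No library received a known AHR ligand, so how far the targets can rise in these spheroids was not measured.

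The core of the response element is shown first because it links the receptor to its targets. RefSeq promoters (GRCh38.p14) were held for 7 of the 9 genes in 10 windows, since AHRR and TIPARP have several starts, and no window was held for CYP1B1 and ALDH3A1. In the 250 bases before each start, GCGTG was searched on both strands. The matches are printed 5′ to 3′ on the strand of the gene, with the core, or its reverse complement CACGC, in capitals.

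CYP1A1 (chr15:74725571-74725595, minus strand): agggaaggagGCGTGgccacacgta
TIPARP, farther site (chr3:156674372-156674396, plus strand): cgagaaaggaCACGCcccctcgcgg
TIPARP, nearer site (chr3:156674438-156674462, plus strand): aacgaacgcgCACGCgcgcgcaggg
AHRR, upstream start (chr5:321674-321698, plus strand): cgggcggctcGCGTGccggggtggg
AHRR, downstream start (chr5:322558-322582, plus strand): agaagggtggGCGTGtgcgcgcgtt

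These letters begin at position -57 from the CYP1A1 start, at -208 and -142 from the first TIPARP start, and at -30 and -42 from the 2 AHRR starts. AHRR has a further match at the far edge of its downstream window. The windows of AHR, ARNT, CYP1A2 and LRAT, and the other TIPARP windows, held no match. The core is also one form of the core that the HIF factors bind, and it was present in 32.2% of all 35116 promoter windows of the same length. The longer form TNGCGTG, which contains the core, was present in 4.52% of them and, among these genes, only before the upstream AHRR start. The antioxidant response element core TGACNNNGC, bound by NRF2, was present in 10.9% of windows and, among these genes, only before ARNT. A match is a description of these letters and not a site of binding, and elements farther out were not searched.

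Levels are given as TPM values, a unit that is scaled for transcript length and to the same total in every library. TPM keeps no depth, and so no counting error can be given. The number of genes at 1 TPM or more ran from 15280 to 17201. Transcripts of the mitochondrial genome took 41.2% to 44.1% of TPM in AsPC-1 and 22.8% to 25.6% in PANC-1, which lowers the other genes of AsPC-1 in comparison. The summed TPM of 6 epithelial markers ran from 9167 to 10555 in AsPC-1 libraries and from 2709 to 3029 in those of PANC-1. Every PANC-1 library had KRT8, KRT18 and KRT19 at 852 TPM or more. EPCAM there did not exceed 16.8 TPM, CDH1 6.56 TPM and CEACAM6 0.097 TPM. VIM, a mesenchymal marker, was higher in PANC-1 libraries (3132 to 3391 TPM) than in those of AsPC-1 (660 to 816 TPM). CDH2 and ZEB1, also mesenchymal, were higher in PANC-1 too, and FN1 did not exceed 0.533 TPM in any library. Of markers of other cells, PTPRC of leukocytes did not exceed 0.019 TPM and PECAM1 of endothelium 0.038 TPM, and CD3E and ALB were listed at 0 throughout. CD68, a lysosomal protein used as a macrophage marker, was at 108 to 139 TPM in the 8 libraries. LYZ, also a marker of myeloid cells, reached 1970 TPM in AsPC-1. COL1A1 reached 107 TPM in PANC-1, where the other fibroblast markers COL1A2, DCN and PDGFRB were at 0.892 TPM or less.

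AHR, ARNT and AHRR were present in both lines. AHR (ENSG00000106546, chromosome 7, 16916359 to 17346152, plus strand) was at 28.3 TPM with vehicle, 26.8 with roseoflavin, 34.4 with trametinib and 29.6 with both compounds in AsPC-1. PANC-1 had 21.6, 22.0, 21.3 and 22.6 TPM in the same order. All 4 AsPC-1 libraries lay above all 4 PANC-1 libraries, and the highest was the AsPC-1 library with trametinib. The gene AC019117.2 overlaps AHR on the same strand. Its AsPC-1 level was also highest with trametinib alone (30.7 TPM, against 24.6 to 26.1 TPM in the other AsPC-1 libraries). How the authors' counting treated reads shared by AHR and AC019117.2 is not known, and its part in these levels was not tested.

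ARNT (ENSG00000143437, chromosome 1, 150809705 to 150876768, minus strand), with which AHR pairs to bind DNA, was at 14.8, 13.0, 15.7 and 14.1 TPM in AsPC-1 with vehicle, roseoflavin, trametinib and both. PANC-1 had 32.2, 31.7, 32.9 and 33.2 TPM. The PANC-1 libraries were thus all above the AsPC-1 libraries, and within AsPC-1 the libraries with roseoflavin were the lowest. AHRR (ENSG00000063438, chromosome 5, 304176 to 438291, plus strand), which competes with AHR for ARNT, was at 9.63, 7.78, 8.08 and 8.01 TPM in AsPC-1. The PANC-1 values were 11.9, 11.7, 12.0 and 11.9 TPM. The AsPC-1 vehicle library was the highest of that line, and the treated libraries lay close together. AHRR overlaps PDCD6 on the same strand, which was far more abundant (54.6 to 64.1 TPM in AsPC-1). How reads shared by the 2 genes were counted is not known, so the AHRR level is uncertain.

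Of the 3 cytochromes, CYP1A1 was the more abundant in AsPC-1 and CYP1B1 in PANC-1, and CYP1A2 was at or near 0. CYP1A1 (ENSG00000140465, chromosome 15, 74719542 to 74725610, minus strand) was at 6.67 TPM with vehicle, 6.83 with roseoflavin, 9.38 with trametinib and 10.1 with both in AsPC-1. In PANC-1 it was at 0.298, 0.216, 0.299 and 0.220 TPM. The AsPC-1 libraries fell into a lower pair without trametinib and a higher pair with it, while all PANC-1 libraries were below 0.3 TPM. CYP1A2 (ENSG00000140505, chromosome 15, 74748844 to 74756202, plus strand), the liver form, was at 0.032 TPM in the AsPC-1 vehicle library and was listed at 0 in the other 7. CYP1B1 (ENSG00000138061, chromosome 2, 38066973 to 38109902, minus strand), the form common outside the liver, was at 3.09, 3.27, 3.65 and 3.97 TPM in AsPC-1 and reached 136, 136, 132 and 138 TPM in PANC-1. The ranges of the lines did not overlap for CYP1A1 or for CYP1B1.

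TIPARP (ENSG00000163659, chromosome 3, 156673235 to 156706770, plus strand), which modifies AHR and promotes its degradation, was at 46.1, 46.8, 50.1 and 46.0 TPM in AsPC-1. PANC-1 had 29.2, 28.9, 26.5 and 28.4 TPM. The library with trametinib alone was the highest in AsPC-1 and the lowest in PANC-1. ALDH3A1 (ENSG00000108602, chromosome 17, 19737984 to 19748943, minus strand), which oxidises aldehydes, was at 73.1, 81.7, 62.9 and 79.2 TPM in AsPC-1. PANC-1 had 0.057, 0.160, 0.074 and 0.191 TPM. In AsPC-1 both libraries with roseoflavin were above both libraries without it. LRAT (ENSG00000121207, chromosome 4, 154626945 to 154753118, plus strand), which stores retinol as esters, was listed at 0 throughout AsPC-1, and its PANC-1 values of 0.103, 0.124, 0.057 and 0.079 TPM, like those of ALDH3A1 there, were too low to read an order from.

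**Figure D1:**
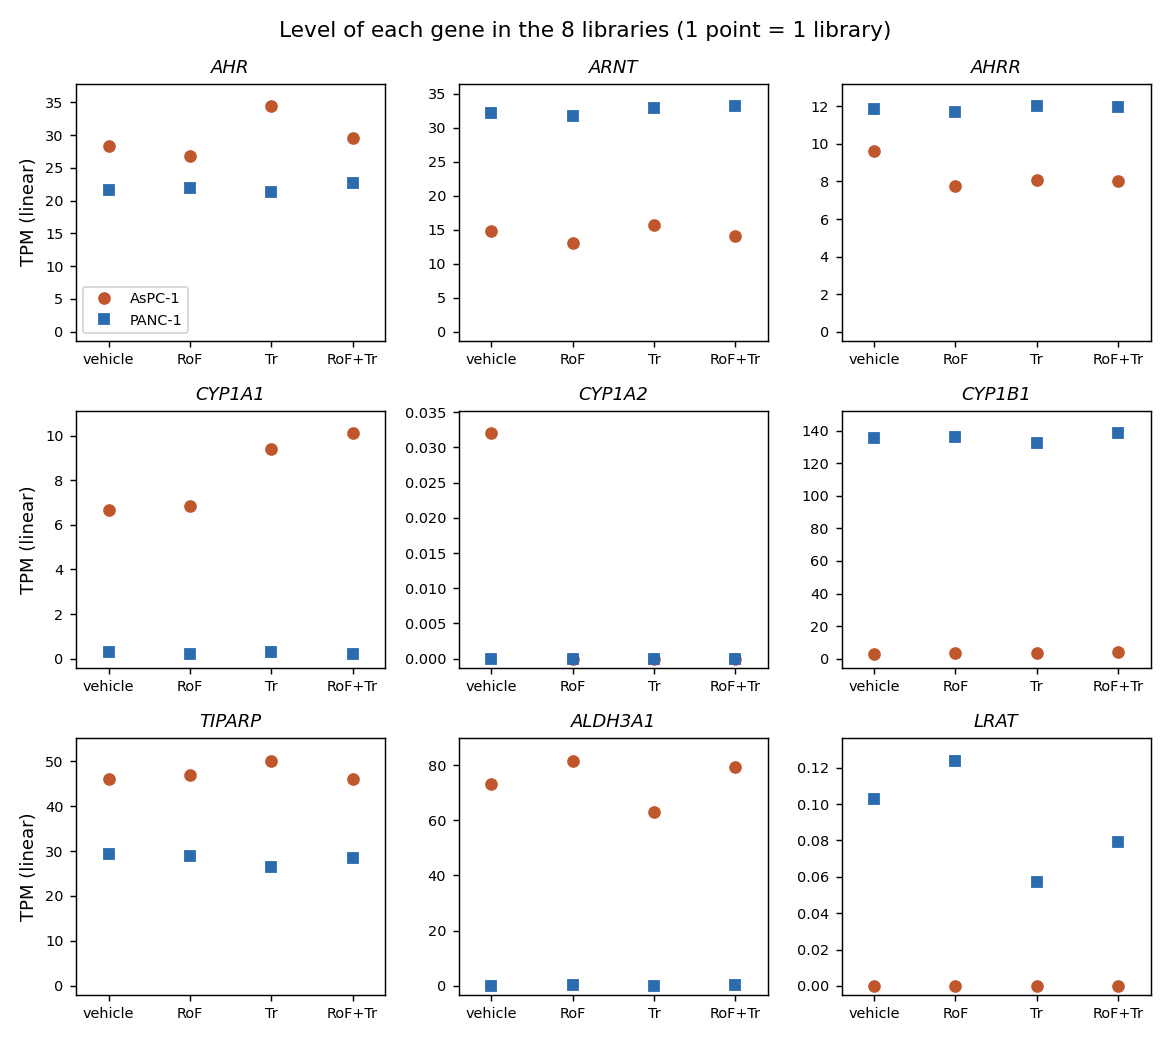
Level of each of the 9 genes in TPM on a linear axis, 1 point per library, for AsPC-1 (circles) and PANC-1 (squares) with vehicle, roseoflavin (RoF), trametinib (Tr) or both. CYP1B1 stands at 132 to 138 TPM in PANC-1 beside 3.09 to 3.97 TPM in AsPC-1, and CYP1A1 shows a step with trametinib, in AsPC-1.

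Ranked by mean level in AsPC-1, the order was ALDH3A1 (74.2 ± 8.36 TPM, SD, n = 4), TIPARP (47.3 ± 1.95), AHR (29.8 ± 3.30), ARNT (14.4 ± 1.13), AHRR (8.37 ± 0.847), CYP1A1 (8.25 ± 1.75), CYP1B1 (3.49 ± 0.395), CYP1A2 and LRAT, where the SD is over the 4 libraries of the line and includes the treatments. AHRR and CYP1A1 overlapped and cannot be ordered. In PANC-1 the order was CYP1B1 (136 ± 2.47 TPM), ARNT (32.5 ± 0.691), TIPARP (28.3 ± 1.22), AHR (21.9 ± 0.559), AHRR (11.9 ± 0.142), CYP1A1 (0.258 ± 0.0465), ALDH3A1 (0.120 ± 0.0651), LRAT (0.0908 ± 0.0291) and CYP1A2. There only ALDH3A1 and LRAT overlapped as neighbours.

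No AHR target passed the test after roseoflavin. In the fit over both lines the effects on TIPARP, CYP1B1 and CYP1A1 were at most 0.06 in size on the log2(TPM + 1) scale. That on AHRR was -0.08, and that on ALDH3A1, the largest, was 0.19. In bulk libraries such as these, fewer cells of a type and less RNA per cell cannot be told apart. The test was limma on log2(TPM + 1), fitted to the 19122 genes that reached 1 TPM in 2 or more of the libraries, with line and trametinib as additive terms and 4 libraries against 4. That filter was passed by 7 of the 9 genes, and CYP1A2 and LRAT were not tested. Of the 7 tested members 0 passed a Benjamini-Hochberg adjusted p of 0.05, beside 0% of all tested genes. An unadjusted p under 0.05 was found for 1 member (ALDH3A1) and 1358 genes (7.1%). The median effect of the 7 was -0.01 and that of all genes -0.02.

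TIPARP differed by -0.0054 (SE 0.0503, limma adjusted p 0.989) between libraries with and without roseoflavin. The 95% interval of this difference, as a ratio of TPM + 1, ran from 0.916 to 1.08. CYP1B1 differed by 0.06 (SE 0.0537, limma adjusted p 0.850), with an interval from 0.951 to 1.14. CYP1A1 differed by -0.01 (SE 0.112, limma adjusted p 0.986), with an interval from 0.820 to 1.20. The intervals are not adjusted for the number of genes, and the added 1 TPM hides most of any change of CYP1A1 in PANC-1. There the deposited values went from 0.298 to 0.216 TPM and, on top of trametinib, from 0.299 to 0.220 TPM, so both libraries with roseoflavin were lower. With a pseudocount of 0.1 the CYP1A1 difference in PANC-1 was -0.33 and that over both lines -0.13, and neither passed. Libraries with roseoflavin lay below those without it in PANC-1 for 22.7% of all tested genes, and above them for 22.9%, AHR, CYP1B1 and, at its level near 0, ALDH3A1 among these.

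Roseoflavin was then given a term in each line, in a fit to all 8 libraries with a common trametinib term. The lines thus share their SE, and the interval in either line also holds the spread of the other. A difference between the lines in the trametinib effect enters the interval too, and for CYP1A1 that difference was -0.47. CYP1A1 had a roseoflavin effect of 0.06 (95% interval of the ratio 0.782 to 1.40) in AsPC-1, and in PANC-1 of -0.09 (0.702 to 1.25). For CYP1B1 it was 0.08 (0.919 to 1.22) and 0.03 (0.890 to 1.18), and for TIPARP -0.05 (0.854 to 1.09) and 0.04 (0.909 to 1.16). In each line 0 of the 7 members passed (limma, adjusted p), beside 0% of all genes in AsPC-1 and 0% in PANC-1. The numbers with an unadjusted p under 0.05 were 2 members (ALDH3A1 and ARNT) and 1831 genes in AsPC-1, and 0 members and 1811 genes in PANC-1.

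ALDH3A1 had the largest roseoflavin effect of the 7 members. Its level went from 73.1 to 81.7 TPM without trametinib and from 62.9 to 79.2 TPM with it in AsPC-1. In PANC-1 it stayed under 0.2 TPM in every library, and it passed the filter through AsPC-1 only. The fit over both lines gave 0.19 on the log2(TPM + 1) scale (SE 0.0589), which did not pass (limma unadjusted p 0.0160, adjusted p 0.660). In AsPC-1 its libraries with roseoflavin lay above those without it, as they did for 10.6% of all tested genes. The PANC-1 values had the same order, which held in both lines for 2.09% of genes, but nothing is read from it at that level. No member lay below in both lines, where 5.07% of genes did. The term for AsPC-1 was 0.24 and that for PANC-1 0.14, and the difference between the lines was -0.10 (SE 0.116, limma adjusted p 0.816). With a pseudocount of 0.1 that difference turned to 0.49, because a smaller added constant weighs the low PANC-1 level more. Between the lines 0 of 7 members differed in their roseoflavin effect, beside 0.0261% of all genes, and 0 members and 1907 genes had an unadjusted p under 0.05.

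On the receptor side, no member was called either. AHR differed by -0.05 (SE 0.0670), ARNT by -0.08 (SE 0.0460) and AHRR by -0.08 (SE 0.0629) after roseoflavin over both lines, with limma adjusted p-values of 0.750 to 0.903. ARNT in AsPC-1 was lower in both matched comparisons, from 14.8 to 13.0 and from 15.7 to 14.1 TPM. Its effect there was -0.16 (SE 0.0474, limma adjusted p 0.442). Libraries with roseoflavin lay below those without it in AsPC-1 for 21.6% of all genes, ARNT and AHRR among them. The mitochondrial share in these AsPC-1 libraries moved from 41.2% to 44.1% with roseoflavin and from 42.2% to 41.3% on top of trametinib, and with TPM rescaled after removing mitochondrial transcripts the ARNT effect in AsPC-1 was -0.14 (limma adjusted p 0.461).

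**Figure D2:**
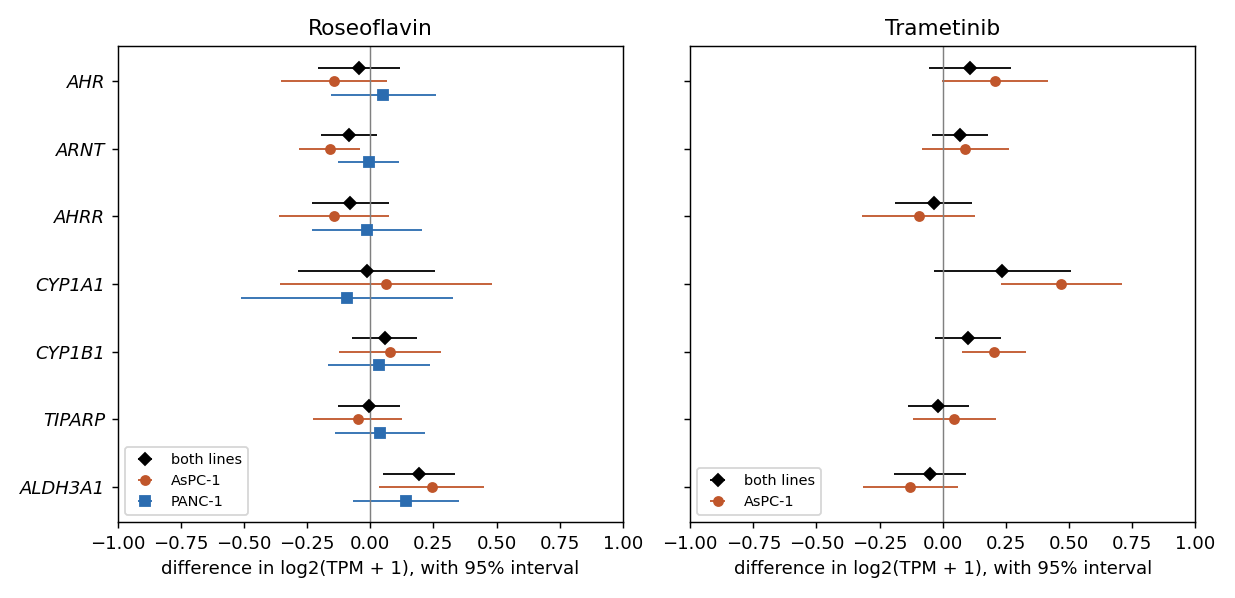
Difference in log2(TPM + 1) between libraries with and without roseoflavin (left) or trametinib (right) for the 7 genes tested, with 95% intervals from limma, over both lines and within a line. For roseoflavin every point lies between -0.16 and 0.24, and for trametinib the CYP1A1 difference in AsPC-1, 0.47, lies farthest from 0.

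The other genes of the pathway came from lists of named genes. Of 12 further AHR targets 8 were tested, and 0 passed for roseoflavin over both lines, with a median effect of -0.02 against -0.02 for all genes. The medians of the lines differed in sign, at -0.08 in AsPC-1 (3 positive, 5 negative) and 0.11 in PANC-1. In PANC-1 6 were positive and the other 2, UGT1A1 and UGT1A6, are listed at 0. All 8 differences between the lines were positive (median 0.18 against 0.04 for all genes), and 0 passed there or in either line. Those of UGT1A1 and UGT1A6 are only their AsPC-1 effects with the sign turned. The share of all genes with a positive difference was not counted. In the limma test of this difference 2 of the 8 had an unadjusted p under 0.05, beside 9.97% of all genes. CYP2S1, a cytochrome of epithelia, went from 230 to 193 and from 233 to 182 TPM in AsPC-1 (effect -0.30, SE 0.0493, limma adjusted p 0.266), while the PANC-1 libraries gave 13.6 to 15.8 and 13.9 to 15.9 TPM (effect 0.20, SE 0.0493, limma adjusted p 0.409). NQO1, a quinone reductase induced through both AHR and NRF2, went from 166 to 242 TPM and, on top of trametinib, from 172 to 241 TPM in PANC-1. In AsPC-1 it went from 336.9 to 337.5 and from 374.9 to 376.0 TPM. The effect in PANC-1 was 0.51 (SE 0.0558, limma adjusted p 0.114), and the difference between the lines was 0.51 (SE 0.0789, limma adjusted p 0.226). When the fit kept only the 9368 genes averaging 10 TPM or more, 22 genes passed for roseoflavin in PANC-1, NQO1 among them (limma adjusted p 0.0450), and 0 of the members did.

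SCIN, an actin-severing protein, went from 2.94 to 2.40 and from 4.13 to 2.81 TPM in AsPC-1, and did not exceed 0.169 TPM in PANC-1. SLC7A5, which imports large neutral amino acids, went from 206 to 221 and from 210 to 238 TPM in PANC-1. Its AsPC-1 levels went from 41.3 to 40.0 and, on top of trametinib, from 34.6 to 42.5 TPM. UGT1A1 and UGT1A6, glucuronosyltransferases that share most of their exons and so cannot be separated here, went from 122 to 115 and from 96.4 to 91.5 TPM in AsPC-1, and PANC-1 lists both at 0. GSTA1 and SERPINB2 were listed at 0 in all libraries.

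Of the 9 genes of the receptor complex and its coactivators, 0 passed for roseoflavin, and their median effect was -0.0043. HSP90AA1, a chaperone that holds AHR, went from 505 to 467 and from 501 to 454 TPM in PANC-1. NCOA1, a coactivator, went from 6.97 to 6.32 and from 8.77 to 7.12 TPM in AsPC-1. Of 9 enzymes that make AHR ligands from tryptophan, 5 were tested and 0 passed. AFMID, which acts early in the kynurenine branch, went in PANC-1 from 18.4 to 20.9 and from 19.1 to 20.7 TPM, and IL4I1, an amino acid oxidase, was at 14.5 to 17.6 TPM there. Of 10 other genes of retinoid handling, beside LRAT, 9 were tested and 0 passed (median -0.02), and CRABP2, which carries retinoic acid, went from 9.32 to 9.49 and, on top of trametinib, from 13.4 to 9.70 TPM in AsPC-1. Its PANC-1 values went from 1447 to 1449 and from 1549 to 1449 TPM (effect over both lines -0.13, SE 0.0878, limma adjusted p 0.795). Of 16 genes of the bHLH-PAS family 12 were tested and 0 passed (median -0.02). ARNTL, the clock factor, went from 2.81 to 3.41 and from 3.10 to 3.76 TPM in PANC-1. In AsPC-1 it went from 4.36 to 4.73 and, on top of trametinib, from 4.61 to 4.52 TPM.

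NRF2 targets from outside the AHR lists were set beside these genes because NQO1 also answers to NRF2. HIF targets were added because ARNT also pairs with the HIF factors. Whether AHR also acts on these genes was not checked. Both lists were chosen with earlier results of these data known, and both are given as values only. All 9 NRF2 targets had positive effects of roseoflavin in PANC-1, with a median of 0.80 against 0 for all genes and 0.03 for the 7 members, and 0 passed. OSGIN1, an oxidative stress gene, went from 5.71 to 14.7 and from 4.52 to 15.4 TPM in PANC-1 (effect 1.40, SE 0.120, limma adjusted p 0.101). HMOX1, which degrades heme, went from 273 to 657 and from 257 to 668 TPM (effect 1.32, SE 0.153, limma adjusted p 0.118), and with the filter at an average of 10 TPM its limma adjusted p was 0.0450. SLC7A11, the cystine importer, went from 6.61 to 12.1 and from 6.87 to 13.8 TPM (effect 0.84, SE 0.102, limma adjusted p 0.132). In AsPC-1 the median of the 9 was 0.15, beside -0.05 for the members and -0.03 for all genes.

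Of the 8 HIF targets 7 had negative effects in AsPC-1 (median of the 8, -0.78), and BNIP3, a mitophagy receptor, is listed at 0 in every library of that line. All 8 had positive effects in PANC-1 (median 0.36), and 0 passed in either line. ADM, a vasodilator peptide, went from 33.3 to 17.7 and from 40.2 to 15.7 TPM in AsPC-1 (effect -1.09, SE 0.109, limma adjusted p 0.180). CA9, a carbonic anhydrase, went from 143 to 100.4 and from 163 to 77.7 TPM there (effect -0.78, SE 0.151, limma adjusted p 0.322). EGLN3, a hydroxylase of the HIF subunits, went from 12.8 to 8.23 and from 15.5 to 5.66 TPM there (effect -0.94, SE 0.195, limma adjusted p 0.333). For ARNT, which these factors share with AHR, the effect in AsPC-1 was -0.16, as given above.

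**Figure D3:**
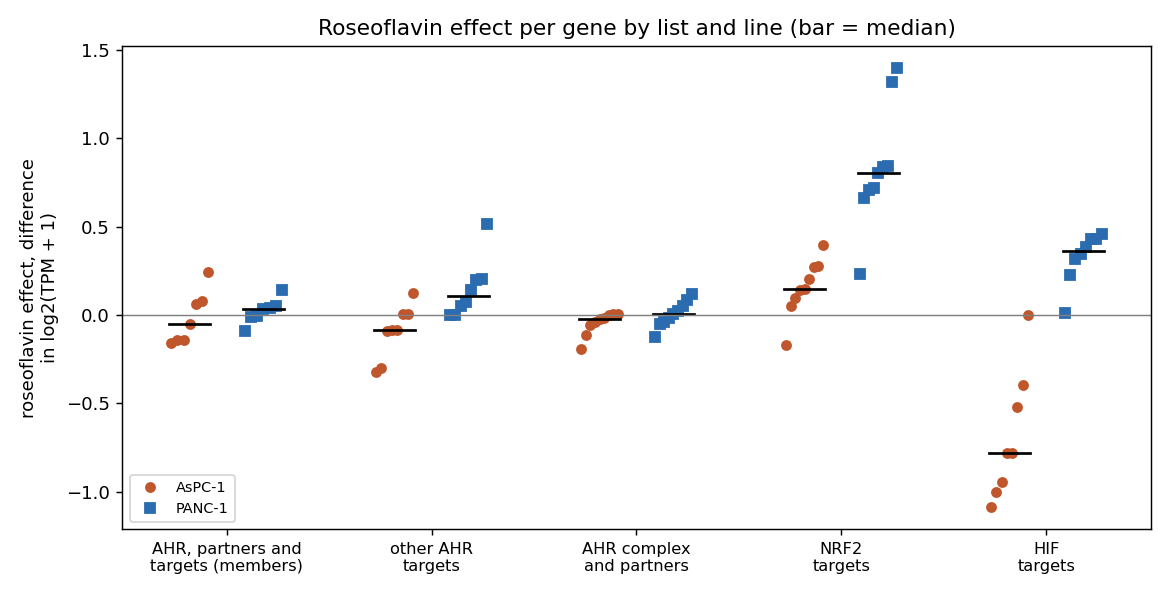
Effect of roseoflavin on log2(TPM + 1) in AsPC-1 (circles) and PANC-1 (squares), 1 point per tested gene, for the 7 members, 8 other AHR targets, 9 genes of the receptor complex, 9 NRF2 targets and 8 HIF targets, with bars at the medians. The members lie between -0.16 and 0.24, while the NRF2 targets in PANC-1 have a median of 0.80 and the HIF targets in AsPC-1 a median of -0.78.

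Trametinib was compared in the same way. Over both lines 0 of the 7 members passed (limma, adjusted p), beside 0% of all genes, and 0 members and 938 genes had an unadjusted p under 0.05. DUSP6, a phosphatase transcribed in response to ERK, served as a check of the compound. It went from 193 to 155 and, on top of roseoflavin, from 176 to 136 TPM in AsPC-1. In PANC-1 it went from 18.6 to 14.0 and from 17.5 to 12.5 TPM. Over both lines its effect was -0.38 (SE 0.0360, limma adjusted p 0.564). All 7 genes of the MEK output list had negative effects (median -0.23), and 0 passed.

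CYP1A1 showed the largest trametinib effect among the members. In AsPC-1 it went from 6.67 to 9.38 TPM without roseoflavin and from 6.83 to 10.1 TPM with it, a difference of 40.6% and 47.8%. In PANC-1 it went from 0.298 to 0.299 and from 0.216 to 0.220 TPM. Over both lines the effect was 0.24 (SE 0.112, limma adjusted p 0.861). A term for trametinib in each line was added after these values had been seen. In AsPC-1 it gave 0.47 for CYP1A1 (SE 0.0938, limma unadjusted p 0.00370, adjusted p 0.310) and 0.20 for CYP1B1 (SE 0.0498, adjusted p 0.359), so 0 members passed, beside 0% of all genes. In that fit 2 members and 2115 genes had an unadjusted p under 0.05. AHR, at 34.4 and 29.6 TPM with trametinib against 28.3 and 26.8 TPM without, had an effect of 0.21 (SE 0.0823, limma adjusted p 0.459).

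These 3 members, AHR, CYP1A1 and CYP1B1, were those whose AsPC-1 libraries with trametinib lay above those without it, which held for 24.0% of all tested genes, and no member lay wholly below, where 13.3% did. In PANC-1 ARNT and AHRR lay above (16.1% of genes) and TIPARP below (11.6%). No member was above in both lines (3.71%) or below in both (1.48%). The difference between the lines in the trametinib effect was -0.47 for CYP1A1 (SE 0.133, limma adjusted p 0.650) and -0.21 for CYP1B1 (SE 0.0704, limma adjusted p 0.671). Here too 0 members passed, beside 0% of all genes, and 2 members and 1392 genes had an unadjusted p under 0.05.

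Single libraries of a line were also compared in pairs, treated beside vehicle, with no test and with a ratio of 1.25 in TPM + 1 as the mark. Roseoflavin alone took 0 of the 7 members past it in AsPC-1 and 0 in PANC-1, beside 14.8% and 12.7% of all genes. Trametinib alone took 1 (CYP1A1) past it in AsPC-1 and 0 in PANC-1, beside 15.6% and 12.2%. Both compounds took 1 (CYP1A1 again) past it in AsPC-1 and 0 in PANC-1, beside 16.0% and 14.7%. Counting genes averaging 10 TPM or more, the shares for roseoflavin alone were 7.06% and 4.49%. With roseoflavin on top of trametinib, ALDH3A1 passed the mark in AsPC-1, where 14.1% of all genes did, and 0 members did in PANC-1, beside 15.4%. With trametinib on top of roseoflavin, CYP1A1 passed it in AsPC-1 (13.5% of all genes) and 0 members in PANC-1 (12.4%). These comparisons share the vehicle, roseoflavin or trametinib library of their line.

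The genes most like TIPARP and CYP1A1 across the 8 libraries, after centring within each line, were searched among 11173 named genes averaging 5 TPM or more. For CYP1A1 they were RRBP1 (Pearson's r 0.992), FUCA2 (0.991) and TM4SF20 (0.979). MIR34A is listed at 0 in 3 of the AsPC-1 libraries. RRBP1 was at 150 TPM in both AsPC-1 libraries without trametinib and at 170 and 179 TPM in those with it. For TIPARP they were MIR34A (0.990), MT-TG (0.964) and NFE2L3 (0.951). These are the highest of many values over 8 libraries that share their scaling, and they carry no test.

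The lines differed from each other in 16027 of the tested genes. The 7 tested members all passed between PANC-1 and AsPC-1, beside 83.8% of all genes, so a call says little here and the sizes are given instead. The median gene was 0.55 higher in PANC-1 on the log2(TPM + 1) scale, 0.22 higher when TPM were rescaled after removing mitochondrial transcripts, and 0.04 higher under quantile normalization. CYP1B1 was 4.93 higher in PANC-1 (SE 0.0537, limma adjusted p 3.59e-09), a ratio of 38.8 in mean TPM. ALDH3A1 differed in the opposite direction by -6.06 (SE 0.0589, limma adjusted p 2.56e-09), with mean levels of 74.2 TPM in AsPC-1 and of 0.120 in PANC-1. CYP1A1 differed by -2.86 (SE 0.112, limma adjusted p 7.26e-07), a mean ratio of 31.9 in favour of AsPC-1 over PANC-1 levels of only 0.216 to 0.299 TPM. ALDH3A1 and CYP1A1 passed the filter through AsPC-1 only, the line where they are higher, so no support is drawn from their p-values here. With a pseudocount of 0.1 the differences were -8.44 for ALDH3A1 and -4.53 for CYP1A1.

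For the regulators the sizes were smaller and the scaling mattered more. ARNT was 1.12 higher in PANC-1 (SE 0.0460) and 0.57 higher than the median gene. TIPARP differed by -0.72 (SE 0.0503) and AHR by -0.42 (SE 0.0670), or by -1.28 and -0.98 from the median gene. AHRR was 0.46 higher in PANC-1 (SE 0.0629, limma adjusted p 0.000420), or -0.09 from the median gene. Rescaled after removing mitochondrial transcripts its difference was 0.11 (limma adjusted p 0.108), under quantile normalization it was -0.07 (limma adjusted p 0.294), and neither passed. The other 6 members kept their direction under both scalings.

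**Figure D4:**
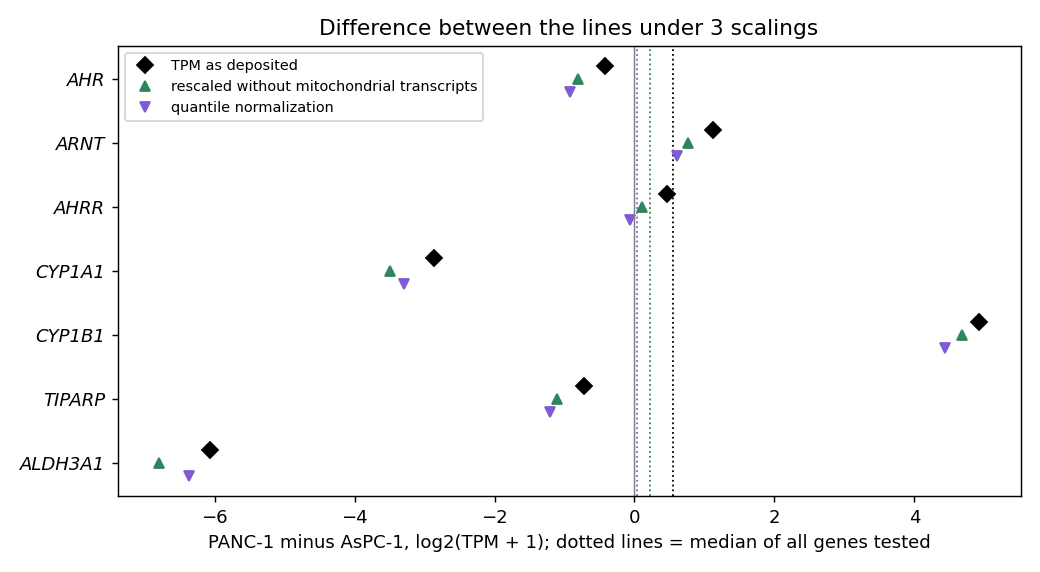
PANC-1 minus AsPC-1 difference in log2(TPM + 1) of the 7 tested members with TPM as deposited (diamonds), rescaled after removing mitochondrial transcripts (upward triangles) and under quantile normalization (downward triangles), with dotted lines at the median of all genes tested. CYP1B1 and ALDH3A1 lie far to either side under each scaling, and AHRR moves from 0.46 to -0.07.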

How the data were processed

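The authors deposited 1 table with TPM per gene and library, per the file headers, from which 985926 blank lines were dropped. STAR 2.7.3a, HTSeq 2.0.2 and hg38 are named in the submitters' processing notes, without role or order, and the annotation is not given in the sources used here. Per the labels' protocols, libraries were made with a stranded poly(A) kit. Of 62649 genes, 19122 that reached 1 TPM in 2 or more of the libraries were tested as log2(TPM + 1), a scale that understates changes of low genes, with limma 3.58.1 in R 4.3.3 (eBayes with a trend) and Benjamini-Hochberg adjustment over all of them. Depth cannot be recovered from TPM. The fits, other than those added later, were also run on simulated data. The change planted there was larger than any roseoflavin effect of the members, so it does not show how well smaller changes are found.

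The members, lists and tests were chosen with earlier results of these data known. The 9 members are named in full. Of each list, up to 3 genes were named, those averaging 1 TPM or more with the largest absolute mean change over the 4 matched roseoflavin comparisons. 1 gene that this rule names is not reported here. Of the MEK output list only DUSP6 is given. UGT1A1, UGT1A6, GSTA1, SERPINB2, CYP2S1, BNIP3 and the marker genes were named with their values known. Gene positions follow GENCODE 29 on GRCh38, by gene identifier.

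Alternatives were a pseudocount of 0.1, no filter, a filter at an average of 10 TPM, quantile normalization, rescaling after removing mitochondrial transcripts, and leaving out each library. The fits of trametinib per line, and the ratio of 1.25, were added after the values had been seen.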

Additional observations from a re-analysis of the deposited data

How the results depend on the processing

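No member passed for either compound under any alternative run. The most genes called for a compound in any of them was 22 of 9368, for roseoflavin in PANC-1 among genes averaging 10 TPM or more. The 0 therefore says little about the members. Of 383 recomputed member values that were counted, 358 kept their direction and side of the threshold. These cover all 7 tested members for roseoflavin over both lines and for the line difference, which is large for most. For the other comparisons only chosen members were counted. The AHRR difference between the lines lost its call with TPM rescaled after removing mitochondrial transcripts (0.11) and under quantile normalization, where it also turned. Counts of called genes (limma, adjusted p) moved as follows, and the cause was not tested. With a pseudocount of 0.1, 1 gene was called for roseoflavin in AsPC-1, 2 in PANC-1, 8 for the difference between lines in the roseoflavin effect and 4 for that in the trametinib effect. Without a filter on low values, which tests 33423 genes, these counts were 10, 2, 0 and 2, and 11 genes were called for trametinib in AsPC-1. Keeping genes averaging 10 TPM or more left 22 calls for roseoflavin in PANC-1 and 8388 between the lines. Quantile normalization and the rescaling each left 0 for the difference in the roseoflavin effect, and the rescaling gave 2 for that in the trametinib effect.

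Directions turned for the ALDH3A1 difference in the roseoflavin effect (0.49, pseudocount 0.1), for CYP1A1 (0.041) and TIPARP (0.0042) over both lines and for AHRR between lines (-0.069) under quantile normalization, and for CYP1B1 in PANC-1 (-0.0025) under the rescaling. Leaving out each library in turn, the roseoflavin effect over both lines ran from -0.10 to 0.020 for AHR, from -0.10 to 0.064 for CYP1A1 and from -0.0465 to 0.0395 for TIPARP, while ALDH3A1 kept its direction (0.14 to 0.23). In AsPC-1 it ran from -0.11 to 0.24 for CYP1A1, from -0.0010 to 0.16 for CYP1B1 and from -0.14 to 0.0396 for TIPARP. In PANC-1 it ran from -0.25 to 0.064 for CYP1A1, from -0.054 to 0.12 for CYP1B1 and from -0.040 to 0.12 for TIPARP. The ALDH3A1 difference between lines ran from -0.21 to 0.0088, the genes called for that contrast from 0 to 0, and those called between the lines from 15618 to 15789. No paired analysis was possible because each group has 1 library and the labels carry no replicate numbers to use as a block. The matching of libraries by line and by the other compound is already part of the fits.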
